A study of Homo sapiens with 2 samples.

Results

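The eukaryotic chaperonin CCT, also called TRiC, is a double-ring folding machine of the cytosol, and its 8 subunits are encoded by 8 separate genes, TCP1, CCT2, CCT3, CCT4, CCT5, CCT6A, CCT7 and CCT8. These genes were taken by their symbols from the tables of RNA levels, and all 8 were found among the 57485 genes listed. Each ring holds every subunit at a fixed place. Newly made actin and tubulin are folded in its chamber with the energy of ATP, and prefoldin hands these chains over to it. The complex is found in nearly every human cell type and is most abundant in cells that grow and divide.

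The cells were ARP1, a human multiple myeloma (MM) line, carrying by lentivirus a short hairpin RNA against SRD5A1 (steroid 5α-reductase type I) that doxycycline (Dox) switches on. There was 1 library of untreated cells and 1 of cells given Dox, so no difference below has a replicate check. Both libraries carry the hairpin and neither is Dox alone, so effects of the drug and of the hairpin cannot be told apart. For the treated sample the genotype entry reads SRD5A2, whereas its title reads SRD5A1. The dose, the duration of Dox and whether the line is 1 clone are not given in the sources used here for these libraries. SRD5A1, the target, was listed at 13.04 FPKM without Dox and 25.88 FPKM with Dox, against the direction that the label implies, so every direction below rests on the labels of the libraries.

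FPKM is the number of fragments per kilobase of transcript, scaled by library size, so that levels of different genes can be compared. The libraries held 45918570 and 48728927 expected counts. Of 7 plasma cell and myeloma markers, all 7 were at 26.61 FPKM or more in each library, whereas 6 markers of other cell types, such as CD3E of T cells and CD14 of monocytes, were between 0.1 and 1.93 FPKM. The log2 ratio was computed as FPKM with Dox plus 0.1 over FPKM without Dox plus 0.1 for the 14859 genes that reached 1 FPKM in either library, named tested genes here, and all 8 subunits passed this filter. Intervals are exact binomial 95% intervals of the counts and cover counting error only. Log2 ratios of 2 genes are said to overlap where their separate intervals do. Such overlap does not show that the gap between them is within counting error.

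All 8 CCT genes were lower in the library labelled with Dox, with a median log2 ratio of -0.73 and a range from -1.04 to -0.37. All 8 also lay below 0 with TPM, TMM factors and DESeq2 size factors, beside 36%, 52.6% and 53.3% of tested genes, respectively. TMM and DESeq2 factors moved every log2 ratio by -0.21 and -0.22, so that values below 0 had to stay there. In bulk RNA, fewer cells of a type and less RNA per cell cannot be told apart. The median of all tested genes was 0.15, the median of the subunits differed from it by -0.88, and 41.5% of tested genes had a log2 ratio below 0. Highly expressed genes were lower more often. Among 746 protein-coding genes with a mean FPKM between 104.09 and 351.54, the range of the subunits, 63.9% were below 0 and their median was -0.17. The summed FPKM of the 8 subunits was 2126.52 without Dox and 1275.38 with Dox, and their share of all counts was 0.340% and 0.214%, respectively. Of the subunits, 1 of 8, CCT5, was more than 2-fold lower, beside 6.41% of all tested genes and 6.84% of the genes of similar level. No subunit was more than 2-fold higher, beside 17% and 6.57%, respectively. The 2-fold limit lies close to several subunits, so this count depends on the scaling and was 0 with TPM, 2 with TMM factors and 3 with DESeq2 size factors, beside 5.26%, 10.2% and 10.5% of tested genes.

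**Figure D1:**
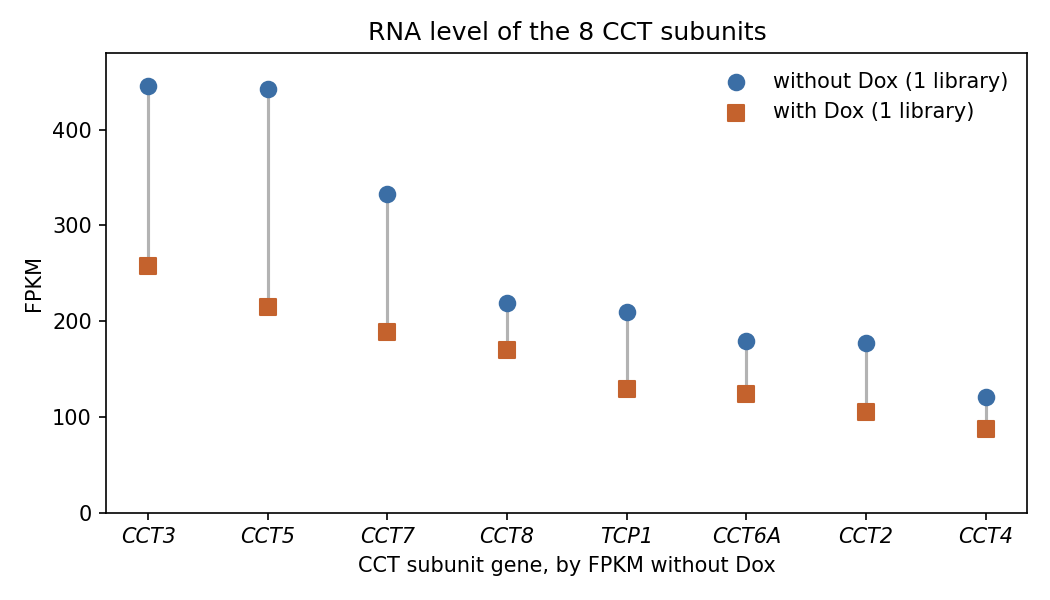
FPKM (vertical axis, linear from 0) of each CCT subunit gene in the library labelled without Dox (circles) and the library labelled with Dox (squares), 1 library each, with a line joining the 2 values of a gene. All 8 squares lie under their circles, and the order of the genes from CCT3 to CCT4 is the same for both symbols.

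Levels were unequal between the subunits although the complex holds them in equal number. Without Dox, CCT3 was highest at 445.13 FPKM and CCT5 next at 442.83, a difference within counting error. These like levels rest on estimated lengths, since CCT3 had 38139 counts and CCT5 23784, over effective lengths of 1865.94 and 1169.68 bases. Counting error, here and below, leaves out any error in length, and the order of the levels depends on these lengths too. CCT7 followed at 332.59 FPKM, CCT8 at 219.05 and TCP1 at 209.82. CCT6A at 178.97 FPKM and CCT2 at 176.98 did not differ beyond counting error, and CCT4 was lowest at 121.15. With these levels even CCT4 was above 93.8% of tested genes. The highest subunit was thus 3.67 times the lowest. With Dox the levels were 257.96 FPKM for CCT3, 214.61 for CCT5, 188.39 for CCT7, 169.74 for CCT8, 129.09 for TCP1, 123.99 for CCT6A, 104.56 for CCT2 and 87.04 for CCT4. This is the same order, now with every neighbour apart beyond counting error, over a narrower span of 2.96 times. The SD of log2 FPKM over the 8 genes was 0.68 without Dox and 0.54 with Dox.

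Of the 4 subunits known to bind ATP strongly, which sit side by side in the ring, CCT5 (epsilon subunit, mutated in a hereditary sensory neuropathy) differed most between the libraries. It had 23784 counts without Dox and 12377 with Dox, a log2 ratio of -1.04 (counting interval -1.08 to -1.01), so that its FPKM with Dox was 48.5% of that without. CCT2 (beta subunit) had 12524 and 7710 counts and a log2 ratio of -0.76 (-0.80 to -0.72). TCP1 (alpha subunit, named after the mouse t-complex) had 14850 and 11072 counts and a log2 ratio of -0.70 (-0.74 to -0.66). CCT4 (delta subunit, which contacts bound actin) had 12174 and 9405 counts and a log2 ratio of -0.48 (-0.52 to -0.44). With FPKM, CCT2 and TCP1 overlapped in counting error and the other pairs of these 4 genes did not. With counts alone, where TCP1 had -0.51, TCP1 and CCT4 overlapped and CCT2 and TCP1 did not.

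The 4 subunits of the weakly ATP-binding side overlapped with them. CCT7 (eta subunit) had 18649 and 12682 counts and a log2 ratio of -0.82 (-0.85 to -0.79). CCT3 (gamma subunit) had 38139 and 23412 counts, the most of the complex, and a log2 ratio of -0.79 (-0.81 to -0.76). For CCT6A (zeta subunit) the counts were 18747 and 13524 and the log2 ratio was -0.53 (-0.56 to -0.50). CCT8 (theta subunit) differed least, with 17004 and 14207 counts, a log2 ratio of -0.37 (-0.40 to -0.34) and an FPKM with Dox of 77.5% of that without. In the order of the FPKM ratios, CCT7 overlapped with CCT3 in counting error, CCT3 with CCT2, CCT2 with TCP1, and CCT6A with CCT4. CCT7 and CCT3 did not overlap with TCP1. With FPKM, the gaps between CCT5 and CCT7, TCP1 and CCT6A, and CCT4 and CCT8 were larger than counting error. With counts alone, CCT5 and CCT8 were still apart from their neighbours, but CCT6A at -0.56 lay below TCP1 at -0.51 and their intervals overlapped. Whether these gaps are larger than the spread between cultures cannot be told with 1 library each.

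As a share of the summed FPKM of the complex, CCT5 made up 20.8% without Dox and 16.8% with Dox, while CCT8 made up 10.3% and 13.3%. For CCT4 the shares were 5.70% and 6.83%, and for CCT6A 8.42% and 9.72%. The other 4 shares differed by less than 1 percentage point, with 20.9% and 20.2% for CCT3 and 9.87% and 10.1% for TCP1. These shares do not depend on the scaling between the libraries. They do depend on the estimated transcript lengths, whose mean was 12.4% longer with Dox for TCP1 and 11.1% longer for CCT7.

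**Figure D2:**
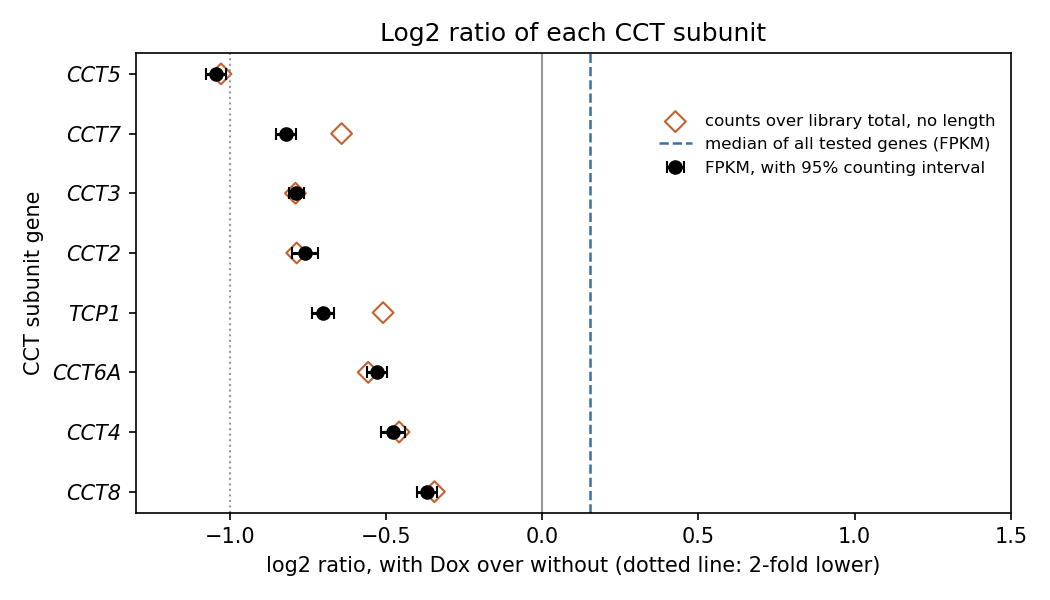
Log2 ratio with Dox over without (horizontal axis) for each CCT subunit, from FPKM (filled circles, bars are exact 95% counting intervals) and from counts over the library totals without any length correction (open diamonds). All symbols lie left of 0 and of the median of all tested genes (dashed line, 0.15), only CCT5 lies past the dotted line that marks 2-fold lower, and the 2 measures separate for TCP1 and CCT7.

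For TCP1 and CCT7 the ratio of FPKM and that of the counts alone were not the same. The mean length of their transcripts, as the tables weight it, was 1784.27 and 2005.79 bases for TCP1, or 12.4% longer with Dox, and 1464.06 and 1627.16 bases for CCT7, or 11.1% longer. The other 6 subunits differed in length by between -1.59% and 1.54%. A mean length over 10% longer was found for 2 of 8 subunits beside 11.9% of 14498 tested genes with more than 3 counts in each library. Counts over the library totals, which use no length and were added after the values had been seen, gave log2 ratios of -0.51 for TCP1 and -0.64 for CCT7. The annotation lists 18 transcripts of TCP1, 5 of them with a retained intron, from 535 to 2499 bases long, and 17 of CCT7, 4 of them with a retained intron, from 249 to 2031 bases long. Which of them differed was not tested, because the tables hold values per gene.

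The exact test of edgeR, run on the rounded counts and assuming 0.4 for the coefficient of variation between replicates, called 0 of 8 subunits, beside 0.125% of 19934 genes called lower. With an assumed coefficient of 0.2 it called 1 of 8, CCT5 with an edgeR log2 fold change of -1.24, beside 5.68% of genes called lower. These calls compare the 2 libraries and not the conditions. A call also needs an absolute log2 fold change over 1. With 0.4, the subunits other than CCT5 lay between -0.998 (CCT3) and -0.553 (CCT8), so that limit alone kept them from being called.

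The 8 genes are spread over the genome, and CCT4 and CCT7 alone share a chromosome. In GRCh38 with GENCODE release 29, whose transcripts made up 202888 of the 204675 listed in the tables, TCP1 (ENSG00000120438.11) occupies chromosome 6, reverse strand, 159778498 to 159789749. CCT2 (ENSG00000166226.12) is at chromosome 12, forward strand, 69585334 to 69601570, and CCT3 (ENSG00000163468.14) at chromosome 1, reverse strand, 156308968 to 156367873. CCT4 (ENSG00000115484.14, reverse strand, 61868089 to 61888804) and CCT7 (ENSG00000135624.15, forward strand, 73233420 to 73253021) are both on chromosome 2. CCT5 (ENSG00000150753.11) is at chromosome 5, forward strand, 10249921 to 10266412, and CCT6A (ENSG00000146731.10) at chromosome 7, forward strand, 56051630 to 56063989. CCT8 (ENSG00000156261.12) is at chromosome 21, reverse strand, 29055805 to 29073797.

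CCT genes are known to be driven by heat shock factors as well as by general promoter elements, so the promoters were searched, as a description of sequence only. RefSeq windows of 300 bases, 250 before to 50 after the most upstream start that the RefSeq table of GRCh38.p14 holds for a gene, were matched for 7 of 8 members, without CCT6A. For 6 of these 7 the window holds the start of the first-numbered GENCODE transcript, and the RefSeq start lies 70 to 173 bases downstream of it, so that the windows include transcribed sequence. For CCT5 the RefSeq start lies 616 bases downstream and the window does not hold that GENCODE start. CCT5 was therefore left out here, by a check added after the windows had been read. The gene records start further upstream for CCT7 and CCT3, at 73233420 and 156367873. By these records the windows of CCT7 and CCT3 also lie inside the gene. The windows of the subunits with the lowest (CCT7) and highest (CCT8) log2 ratio among the 6, and of the only one with a match to part of the heat shock element (TCP1), read as follows, with matches to GAANNTTC, TTCNNGAA and CCAAT on either strand in capitals:
TCP1 (chr6:159789553-159789852, strand reverse): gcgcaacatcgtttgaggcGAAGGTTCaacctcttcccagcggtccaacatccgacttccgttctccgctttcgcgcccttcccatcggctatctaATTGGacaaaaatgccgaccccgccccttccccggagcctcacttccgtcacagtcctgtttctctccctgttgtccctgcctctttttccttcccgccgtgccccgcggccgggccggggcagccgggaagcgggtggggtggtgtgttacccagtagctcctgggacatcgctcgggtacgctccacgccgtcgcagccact
CCT7 (chr2:73234058-73234357, strand forward): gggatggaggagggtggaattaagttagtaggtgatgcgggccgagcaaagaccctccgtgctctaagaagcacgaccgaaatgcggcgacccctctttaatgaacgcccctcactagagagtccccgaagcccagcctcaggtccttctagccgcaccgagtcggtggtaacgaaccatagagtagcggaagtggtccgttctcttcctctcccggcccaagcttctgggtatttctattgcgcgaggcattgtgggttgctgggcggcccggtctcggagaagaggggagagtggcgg
CCT8 (chr21:29073599-29073898, strand reverse): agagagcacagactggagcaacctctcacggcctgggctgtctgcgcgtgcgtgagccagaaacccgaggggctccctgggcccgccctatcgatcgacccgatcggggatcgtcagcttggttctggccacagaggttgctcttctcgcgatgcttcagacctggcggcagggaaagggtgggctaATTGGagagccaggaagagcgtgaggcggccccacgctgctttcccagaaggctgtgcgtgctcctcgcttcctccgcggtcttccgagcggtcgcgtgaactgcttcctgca

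GAANNTTC, a head-to-head pair of units and only part of a full heat shock element, was in 1 of 6 windows, that of TCP1. It lay at positions -231 to -224 from the RefSeq start. The same match was in 6.86% of all 27305 windows, which were not checked against GENCODE starts. The tail-to-tail pair, TTCNNGAA, also only a part, was in 0 of 6 and in 7.83% of all windows. A CCAAT box was in 4 of 6 (TCP1, CCT2, CCT3 and CCT8) and in 35.7% of all windows, and a GC box, GGGCGG, in 5 of 6 and in 44.5%. Neither the E-box CACGTG, which MYC binds, nor the amino acid response core TGATGNAA was found in the 6 windows, against 7.41% and 3.67% of all windows. The cyclic AMP response element TGACGTCA was in 0 of 6 and 1.97% of all windows, and the ETS site CCGGAAG in 1 of 6, that of CCT2, and 10.6%. All motifs were searched on both strands. The CCAAT boxes began at -91 (CCT2), -75 and -34 (CCT3) and -63 (CCT8) from the RefSeq start. The GENCODE starts of these genes lie 125, 173 and 149 bases upstream of the RefSeq starts, so these boxes lie downstream of them. So do the GC boxes of TCP1, CCT2, CCT3 and CCT7 and the ETS site of CCT2. The counts are thus of windows and not of sequence upstream of the GENCODE starts. Of the factors that bind such elements, HSF1 was at 21.28 and 21.42 FPKM, HSF2 at 9.81 and 10.58, and MYC at 456.1 and 638.78, a log2 ratio of 0.49. HSF1 and HSF2 had log2 ratios of 0.01 and 0.11 with FPKM and lay below 0 with TMM or DESeq2 factors, and MYC lay above 0 in each.

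Several CCT genes start back to back with another gene, so the subunits were set beside RNA made from a nearby start. Starts were taken from the outer ends of the gene records. For CCT3 and CCT7 these, at 156367873 and 73233420, are not the starts of the first-numbered transcripts, at 156338465 and 73234238. A shared start region is thus not shown for CCT7, and CCT3 was searched only at its outer start. By the GENCODE gene records, 5 subunits had a protein-coding gene on the opposite strand whose start lay within 1000 bases, and all 5 of these neighbours had a higher log2 ratio than the subunit. This count is near the background, since 81.2% (CCT4) to 94.1% (CCT5) of tested genes had a higher log2 ratio than these 5 subunits. PSPH, the phosphatase of the last step of serine synthesis, starts 26 bases from CCT6A. It was listed with 1078 and 4473 counts, at 21.43 and 94.1 FPKM, a log2 ratio of 2.13 (2.03 to 2.23) where CCT6A had -0.53. FAM173B, a gene for a mitochondrial lysine methyltransferase, starts 24 bases from CCT5 and was at 13.75 and 19.33 FPKM, a log2 ratio of 0.49 (0.33 to 0.65) where CCT5 had -1.04. MRPL18, a mitochondrial ribosomal protein gene that starts 63 bases from TCP1, was at 68.08 and 52.87 FPKM, a log2 ratio of -0.36. PRADC1 beside CCT7 had a log2 ratio of -0.16 and COMMD1 beside CCT4 one of -0.10. For PSPH and FAM173B the direction was thus opposite to that of the subunit beside them.

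**Figure D3:**
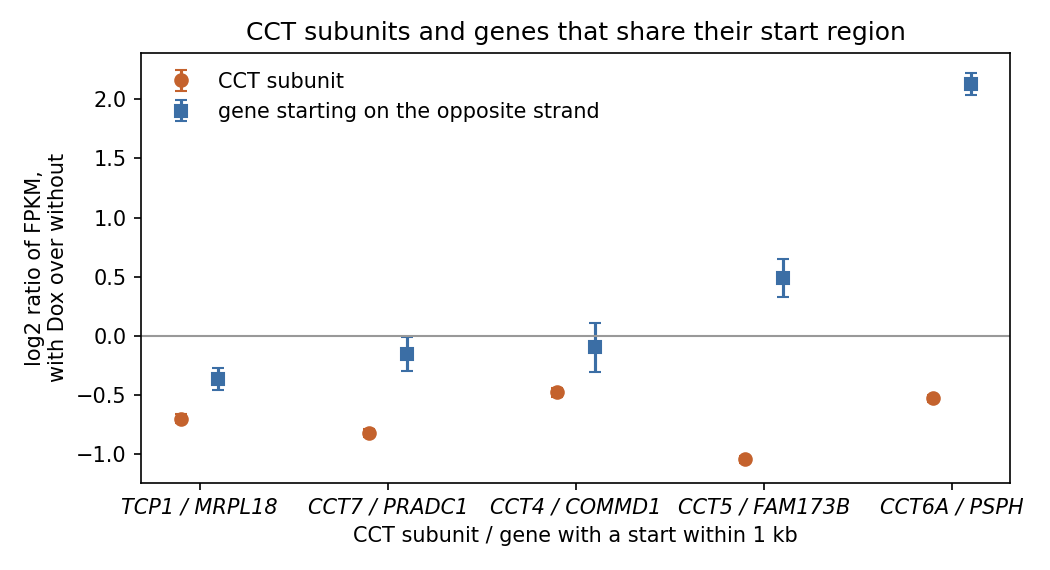
Log2 ratio of FPKM with Dox over without (vertical axis) for 5 CCT subunits (circles) and for the protein-coding gene that starts within 1 kb on the opposite strand by the gene records (squares), with exact 95% counting intervals. Each square lies above its circle, and the square of PSPH beside CCT6A stands at 2.13.

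Some reads of these genes may be shared. ACAT2, an enzyme gene of lipid metabolism, overlaps TCP1 by 558 bases on the opposite strand, and the sources used here do not say whether the counting used strand. It was listed with 1655 and 1523 counts, a log2 ratio of -0.23. TSACC overlaps CCT3 but had only 17 and 34 counts. The tables list 6 pseudogenes named after the subunits, with 539 and 702 counts in all, or 0.346% and 0.673% of the counts of the 8 subunits. The most counts were listed for CCT6P3 (260 and 383), CCT6P1 (245 and 264) and CCT8P1 (28 and 54). On the scale of counts over the library totals, with no length correction, adding the counts of the pseudogenes to their subunits gave -0.53 in place of -0.56 for CCT6A and left all 8 log2 ratios below 0.

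CCT6B, the paralog of CCT6A that is known mainly from testis, had a higher level with Dox. It was at 2.47 FPKM without Dox and 9.79 with Dox, from 141 and 632 counts, a log2 ratio of 1.94 (1.68 to 2.22). A log2 ratio above 0, in contrast to those of the 8 subunits, was found for 58.4% of all tested genes. CCT6A was at 123.99 FPKM in the same library. Reads of CCT6A and CCT6B can be split between the paralogs by the counting, and this was not tested.

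The log2 ratios of the 8 CCT genes had an SD of 0.22 and a span of 0.68, which was set beside 3 other complexes of many subunits. For prefoldin, with 6 genes, the SD was 0.44, for the 20S proteasome core, with 14 genes, 0.36, and for the COP9 signalosome, with 9 genes, 0.38. Over all tested genes the SD was 1.05, and over the protein-coding genes of similar level it was 0.72. In level, the CCT genes spanned 3.67 times without Dox, the COP9 genes 3.63 times, the prefoldin genes 4.71 times and the proteasome genes 11.7 times. With Dox these spans were 2.96, 3.29, 5.5 and 12.9 times, with CCT now below COP9. A span can widen with the number of genes. The SD of log2 FPKM without Dox, in the same order, was 0.68, 0.63, 0.77 and 0.92. The comparison describes these 2 libraries, and no test was made of the differences between complexes.

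Prefoldin delivers unfolded chains to CCT, and 2 of its genes had ratios like those of the CCT genes. PFDN2 was at 139.58 and 73.92 FPKM and PFDN6 at 141.53 and 74.49, log2 ratios of -0.92 and -0.93, between those of CCT5 and CCT7. The other 4 subunits lay between -0.18 for VBP1 and 0.04 for PFDN5, and the median of the list was -0.16. Of the 6 genes, 5 were below 0 with FPKM, 4 with TPM and 6 with TMM factors. None was past 2-fold with FPKM and 2 were with TMM factors. The cofactors that bind CCT had a median of -0.26, with 3 of 4 below 0. PDCD5 was at 182.23 and 134.4 FPKM, a log2 ratio of -0.44, and the phosducin-like PDCL at 6.38 and 4.81, a log2 ratio of -0.40. TXNDC9, a thioredoxin-like inhibitor of the complex, was at 24.19 and 29.8 FPKM, a log2 ratio of 0.30, and PDCL3 had -0.12.

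Actin and tubulin are the main clients of CCT. Of 12 such genes 11 were tested. The gene below the filter, TUBB2B, was at only 0.14 and 0.46 FPKM and went the other way, with a log2 ratio of 1.22 (0.26 to 2.29). All 11 tested genes were below 0 and their median log2 ratio was -1.90, and 8 lay past 2-fold, beside 41.5% of all tested genes below 0 and 6.41% past 2-fold lower. TUBA1B was at 1337.31 and 258.62 FPKM, TUBA1C at 568.96 and 107.56 FPKM, and TUBB at 821.57 and 165.19 FPKM. Their log2 ratios were -2.37, -2.40 and -2.31, and that of TUBA4A was -2.30. The actin genes ACTB and ACTG1 had -1.27 and -1.11. Tubulin genes are near-identical in parts, and the counting may have split their reads. The cofactors that assemble tubulin after its release from CCT had a median of -0.22, with 4 of 6 genes below 0 (5 with TMM factors). TBCB had a log2 ratio of -0.61, TBCD of -0.30, TBCC of -0.22, and ARL2, a small GTPase of this step, of 0.56.

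**Figure D4:**
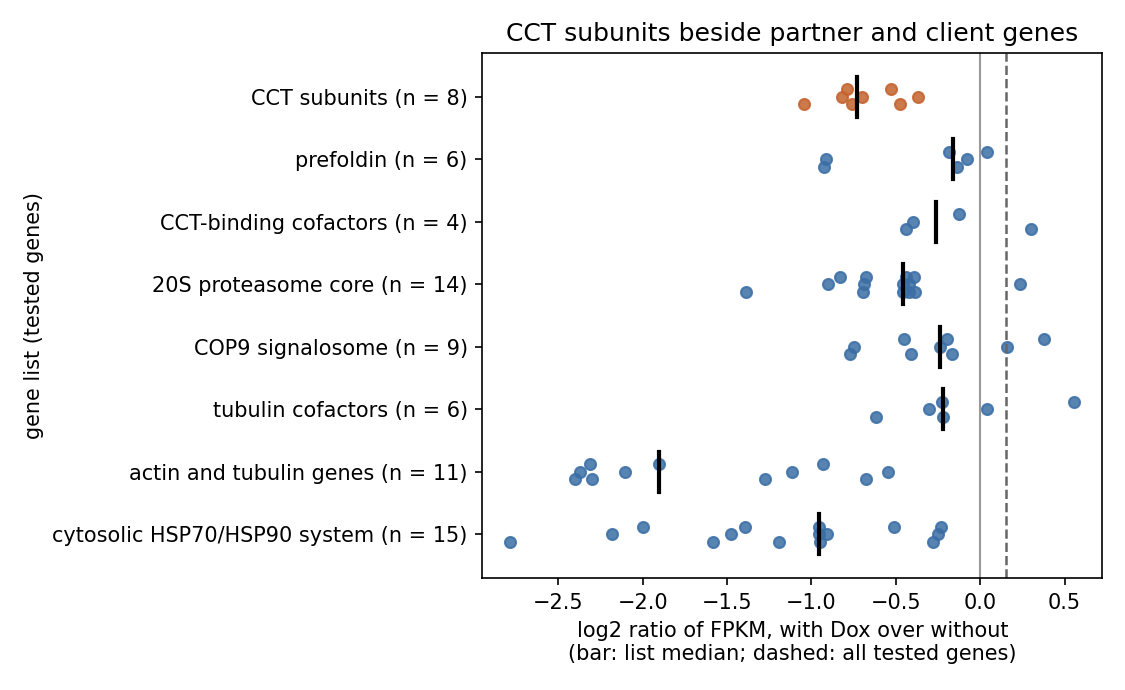
Log2 ratio of FPKM with Dox over without (horizontal axis) for each tested gene of 8 lists, 1 point a gene, with the list median as a black bar and the median of all tested genes as a dashed line. The CCT subunits form a compact group between -1.04 and -0.37, while the actin and tubulin genes and the cytosolic HSP70 and HSP90 system reach -2.40 and -2.78.

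The HSP70 and HSP90 systems work upstream of CCT or beside it. All 15 genes of the HSP70 and HSP90 list were below 0, beside 41.5% of tested genes, and their median was -0.96. With FPKM 7 lay past 2-fold, beside 6.41% of tested genes, and with TMM factors 11 did, beside 10.2%. HSPA8, the constitutive HSP70, was at 2507.25 and 364.23 FPKM, a log2 ratio of -2.78. HSPB1, which the list holds too although it is neither an HSP70 nor an HSP90, had a log2 ratio of -2.18. HSPA1A and HSP90AB1 had log2 ratios of -2.00 and -1.58. The mitochondrial chaperonin is a distant relative of CCT. Its ring protein HSPD1 was at 481.02 and 504.14 FPKM, a log2 ratio of 0.07 that turned negative with TMM factors, while its lid HSPE1 was at 458.9 and 167.32 FPKM, a log2 ratio of -1.46.

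The 5 protein-coding genes closest to the medians of the CCT genes in log2 FPKM in both libraries were PAICS, an enzyme of purine synthesis, NDUFB7, a subunit of respiratory complex I, H2AFY, a histone variant, SCAMP3 and HNRNPUL1. PAICS was the closest at 213.49 and 144.97 FPKM, a distance of 0.03. With only 2 libraries, likeness means a like level in each library. The medians were taken in each library separately, so the ratios need not match. The 5 genes had log2 ratios from -0.61 (NDUFB7) to -0.46 (SCAMP3), all above the median ratio of the subunits, -0.73.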

How the data were processed

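The authors isolated total RNA from ARP1 cells, enriched mRNA and sequenced 1 library per condition as paired reads of 150 bases. The authors deposited expected counts per gene, which are estimates and were not whole for 33.8% and 33.6% of genes with a count. They also deposited TPM and FPKM values, which divide these counts by effective length and scale them by library. The submitters' processing notes name HISAT2 2.1.0, StringTie 1.3.4d, Bowtie 0.12.2 and hg19, without their roles. Of the 204675 transcripts listed, 202888 are in GENCODE release 29, so GRCh38 coordinates were taken from it, and none were converted.

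Log2 ratios of FPKM took a pseudocount of 0.1 and were kept for genes that reached 1 FPKM in either library. With 1 library per condition no p-value is given. Counts gave exact 95% intervals. Expected counts were rounded for edgeR 4.0.16 (exact test, TMM, assumed coefficient of 0.4, at least 10 counts, FDR under 0.05, absolute log2 fold change over 1) in R 4.3.3, and DESeq2 1.42.0 gave other size factors. Python 3.11.15 with pandas 2.3.3, numpy 2.4.6, scipy 1.17.1 and matplotlib 3.10.9 was used for the rest. The edgeR step and the intervals were tested on simulated data. The members and lists were chosen with earlier results of these data known. Of each other list, the rule names up to 4 genes with the largest absolute log2 ratio at 5 FPKM or more, besides the 5 nearest genes, the neighbours at the start and the 3 main pseudogenes. ACTB, ACTG1, PFDN5 and TUBB2B were named after their values were seen. Alternatives covered the pseudocount, the unit, the scaling, the filter, pseudogenes and the assumed coefficient.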

Additional observations from a re-analysis of the deposited data

How the results depend on the processing

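No paired analysis was possible because each group holds only 1 library. All 56 values of single subunits under 7 alternatives were below 0, from -1.26 to -0.27. For the pseudocounts and the scalings this was largely fixed in advance. Pseudocounts move such high levels little, and TPM, TMM and DESeq2 factors each move all subunits together. Only the alternatives on counts could change the order of the subunits. There CCT5 remained the lowest and CCT8 the highest, and TCP1 and CCT7 took other places between them. The median over the 8 subunits was -0.63 with TPM, -0.94 with TMM factors and -0.95 with DESeq2 size factors, which move all genes together. It was -0.60 with counts over the library totals, an alternative chosen after seeing the data, and -0.58 on the same scale with the counts of pseudogenes added. The number of subunits more than 2-fold lower was 0 with TPM, 2 with TMM factors and 3 with DESeq2 size factors, against 1 with FPKM, while the share of all tested genes was 5.26%, 10.2%, 10.5% and 6.41%, in this order. The edgeR test called 1 subunit with an assumed coefficient of 0.2. Relative to the median of all tested genes, which TMM moved from 0.15 to -0.05 and DESeq2 to -0.06, the median of the subunits lay between -0.89 and -0.88 in all 4 scalings. This difference was fixed in advance, apart from the pseudocount and rounding, because each scaling moves all genes together. With at least 10 FPKM in 1 library, the median of 8428 genes was 0.03. The depth did not limit the subunits, whose lowest count was 7710. The lack of replicates did, since counting intervals leave out the spread between cultures.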

Other observations

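MKKS and BBS10, which are related to CCT in sequence and assemble the BBSome of the cilium with it, were at 6.49 and 6.93 FPKM and at 3.46 and 5.17 FPKM, log2 ratios of 0.09 and 0.57. The counting interval of MKKS held 0, and MKKS lay below 0 with TMM or DESeq2 factors. Of the 4 tested genes of this list, which holds CCT6B too, 4 were above 0 with FPKM, beside 58.4% of all tested genes, and 3 with TMM factors. Among 12 tested genes for other proteins known to be folded by CCT, 7 were below 0 with FPKM, 6 with TPM and 10 with TMM factors, and none was past 2-fold. The cell cycle genes CCNE1, CDC20 and PLK1 had log2 ratios of -0.68, -0.50 and -0.37, and PPP2R2A, a phosphatase subunit, had 0.59.

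Among the genes of the complexes set beside CCT, the catalytic proteasome subunit PSMB6 was at 134.1 and 51.1 FPKM, a log2 ratio of -1.39. PSMB3, PSMB2 and PSMB5 had log2 ratios of -0.90, -0.83 and -0.69. In the COP9 signalosome, COPS4 and COPS2 had log2 ratios of -0.77 and -0.75, and GPS1 and COPS6 had -0.45 and -0.41.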
